A study of Mus musculus with 12 samples.

Results

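The genes described here encode the nuclear part of the oxidative phosphorylation system. They were taken as the protein-coding nuclear genes whose mouse symbol starts with Nduf, Sdha to Sdhd, Uqcr, Cox4 to Cox8 or Atp5, together with Cyc1 and Cycs. This rule found 98 of the 30803 genes in the table of the WT and GSH libraries and 101 of the 17558 genes in the table of the Ctrl and Cas9 libraries, with 95 symbols in both. In the WT and GSH table, 36 members belonged to complex I, 4 to complex II, 10 to complex III with cytochrome c, 19 to complex IV and 17 to complex V. The prefixes also took in 12 assembly factors (Ndufaf1 to Ndufaf8 and Sdhaf1 to Sdhaf4), which are not part of the finished complexes and were counted apart. Ndufa4 and Ndufa4l2 were counted with complex IV, where their products are now placed. Some genes went by an older symbol in the WT and GSH table. Atp5pb was Atp5f1 there and was counted under each symbol. Atp5md was Usmg5, which the rule missed, and Ndufb1 was Ndufb1-ps, left out as not protein-coding. The sets for complexes I and V therefore differ between the tables.

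All libraries were labelled as cultured 4T1, a mouse breast cancer cell line, grown in DMEM with 10% fetal bovine serum. Their genotypes were labelled WT, GSH, Ctrl and Cas9, and the labels did not say what gene or construct the last 3 names stand for. Total RNA was sequenced from 3 libraries each of WT, GSH and Cas9 and from 1 Ctrl library (Ctrl 3), and the libraries Ctrl 1 and Ctrl 2 of the labels are not analysed here. The labels named no separate cultures or clones, so p-values measured the spread between these libraries, which may be technical.

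Oxidative phosphorylation moves electrons from NADH and succinate through complexes I, II and III and cytochrome c to oxygen at complex IV, and the proton gradient built on the way drives the ATP synthase, complex V. Most subunits are encoded in the nucleus and imported, whereas the membrane cores of complexes I, III, IV and V also hold subunits encoded by the mitochondrial genome. Complex II alone is entirely nuclear-encoded. The nuclear genes are known to be under general control by the transcription factors NRF1, the ETS factor GABP and YY1.

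The binding sites known for these factors were looked up in the start regions of the members, because these factors are known to act on genes of several complexes. RefSeq start regions (GRCm38.p6, from 250 bases before to 50 after a gene start) matched 81 of the 98 members. The NRF1 palindrome, which reads the same on both strands and stands in capitals in the sequences shown here, was found in 7 of them (8.64%), against 1.47% of 17492 protein-coding genes. The ETS letters CCGGAAG, on either strand, were found in 21 members (25.9%) against 12.9%, and the YY1 letters AAGATGGC, on either strand, in 11 members (13.6%) against 3.57%. In the 250 bases before the start alone, YY1 letters were found in 1 member (1.23%) against 1.77%, so that the YY1 matches of the other 10 members lay past the start or across it. No member held 2 of these motifs in overlap. The 5 of the 7 members whose NRF1 palindrome lay wholly before the gene start are shown, 2 of them higher, 1 lower and 2 not called in GSH, with 25 bases on either side, on the strand of the gene, and capitals mark the palindrome:
Ndufa11: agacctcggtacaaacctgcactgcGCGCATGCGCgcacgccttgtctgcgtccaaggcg
Cox6a1: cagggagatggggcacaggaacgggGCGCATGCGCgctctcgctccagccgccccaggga
Atp5g2: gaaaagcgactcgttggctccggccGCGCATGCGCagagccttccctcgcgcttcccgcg
Atp5k: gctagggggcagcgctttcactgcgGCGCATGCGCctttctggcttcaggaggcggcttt
Ndufaf4: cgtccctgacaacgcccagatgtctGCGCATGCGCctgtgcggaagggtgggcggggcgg
These windows lie at chr17:56717677-56717736 on the plus strand (Ndufa11), chr5:115349086-115349145 on the minus strand (Cox6a1), chr15:102671055-102671114 on the minus strand (Atp5g2), chr5:108434415-108434474 on the minus strand (Atp5k) and chr4:24897945-24898004 on the plus strand (Ndufaf4). The palindrome began between 42 bases (Atp5g2) and 162 bases (Cox6a1) before the gene start. In GSH against WT, Atp5g2 and Atp5k were higher, Ndufaf4 was lower, and Ndufa11 and Cox6a1 did not pass the test. A match is a description of letters and not a measured binding site.

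Depth, worked out from the steps between low values, was 20297490 to 21954133 reads in the WT libraries, 18531444 to 30168737 in GSH, 33152215 to 35742818 in Cas9 and 39201544 in Ctrl 3. Marker genes of epithelium (Epcam, Krt8, Krt18, Cdh1, Krt14), as fits a mammary carcinoma line, summed to 1405 to 1528 FPKM in the WT and GSH libraries and to 1530 to 2571 in the Ctrl and Cas9 libraries. Of 8 leukocyte markers, 5 stayed under 1 FPKM in every WT and GSH library, and all 8 summed to 5.49 to 6.69 FPKM in WT and 5.55 to 14.8 in GSH. The epithelial sum was 1405 to 1473 FPKM in WT and 1474 to 1528 in GSH, but its genes went both ways, with Krt8 and Krt18 higher and Epcam (346 to 365 FPKM in WT, 282 to 290.2 in GSH) and Cdh1 lower. A fibroblast sum was 3.13 to 15.8 and 13.8 to 28.6 FPKM. The part of these marker differences in the members' values was not tested. In the Ctrl and Cas9 libraries the 8 leukocyte markers summed to 2440 to 5507 FPKM, although the labels name cultured cancer cells alone. They were led by Lyz2 (1035 to 3048 FPKM) and Cd74 (1067 to 2684 FPKM). WT 3, GSH 2 and GSH 3 shared odorant-binding and major urinary protein transcripts (Obp1a at 132, 168 and 63.7 FPKM, against 0.701 to 1.24 in the other 3). Cas9 3 stood apart from the other Ctrl and Cas9 libraries, with a correlation of 0.956 to 0.965 to each over tested genes against 0.982 to 0.989 among the others. Fewer cells of a type and less RNA per cell cannot be told apart in such bulk libraries.

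Of the 98 members, 89 had a mean of 1 FPKM or more over the WT and GSH libraries. Levels are FPKM, read fragments divided by gene length and library total. In the WT and GSH table this length matched the merged annotated exons of a gene. Levels, sums and shares of different genes therefore also depend on annotation. Over the 6 libraries Ndufab1 had 699 to 1257 reads at 5.48 to 6.88 FPKM, and Ndufc2 768 to 1377 reads at 55.0 to 69.5 FPKM. Together the members held 1.60%, 1.56% and 1.67% of all FPKM in WT 1 to 3 and 1.75%, 1.79% and 1.74% in GSH 1 to 3, with no overlap between the groups. Complex IV genes gave the largest sum in WT, 2050 to 2282 FPKM, followed by complex I with 1261 to 1362, complex V with 978 to 1038, complex III with 630.2 to 679 and complex II with 163 to 172. The assembly factors summed to 55.2 to 61.6 FPKM. Within complexes the levels spread widely: in complex I, Ndufb9 was highest of the tested members, with 137, 129 and 149 FPKM in WT 1 to 3 and 131, 141 and 132 in GSH 1 to 3. Ndufb5 was lowest, with 5.81, 5.52 and 6.66 FPKM in WT and 6.68, 6.20 and 6.27 in GSH, and neither gene passed the test between the groups. In complex IV, Cox6a1 (473, 471 and 518 FPKM) and Cox4i1 (456, 421 and 507 FPKM) did not differ beyond their spread between libraries. WT 2 was the lowest WT library for 68 of 89 tested members and WT 3 the highest for 63.

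GSH against WT was compared over genes with a mean of 1 FPKM or more, which 89 of the 98 members passed, and a gene was called at a Benjamini-Hochberg adjusted p under 0.05 in limma on log2(FPKM + 1). Of these 89, 28 were higher in GSH, 4 were lower and 57 did not pass. Over all 12283 tested genes 37% were called, 20.6% higher and 16.4% lower, and a share of 31.5% of the members was higher and 4.49% lower. The median member differed by 0.087 on the log2 scale and the median gene by 0.021, and 66 of 89 members had a positive difference, against 54.1% of genes. The groups did not overlap for 36 members that were higher and 5 that were lower, where all genes gave 29% and 23.5% (52.5% together). At an unadjusted p under 0.05 there were 41 members of 89, beside 47.9% of all genes. The 4 lower members became 7 without WT 2.

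**Figure D1:**
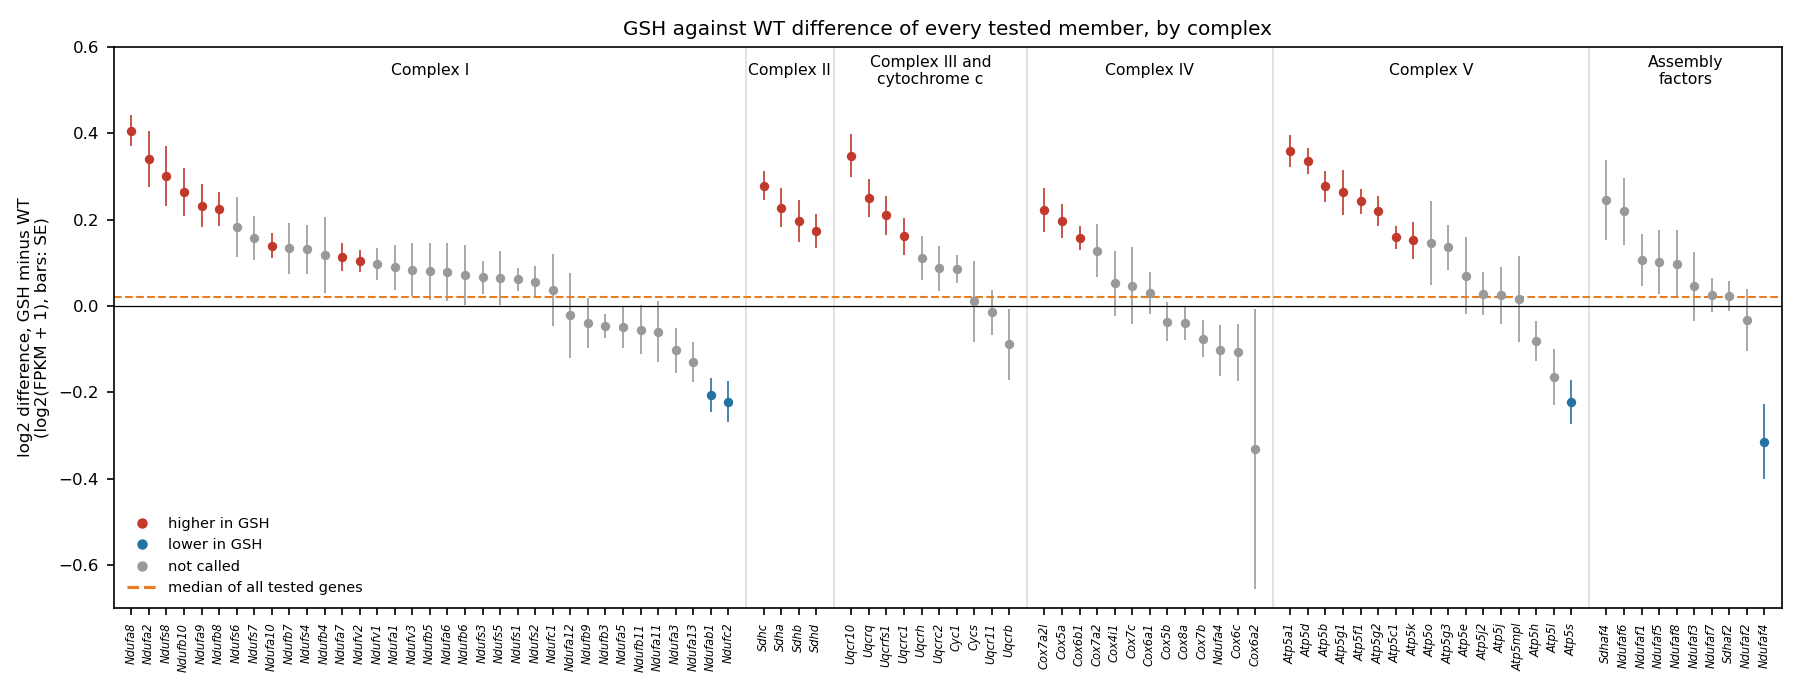
Difference between GSH and WT of each of the 89 tested members (y axis, log2(FPKM + 1), GSH minus WT, bars are standard errors), grouped by complex and ordered by size, with members past the threshold in red (28 higher) or blue (4 lower). All 4 complex II genes are red, and the dashed line is the median of all tested genes (0.021); rescaling without the mitochondrial genome leaves 13 higher and turns the count of lower members to 14.

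The direction of the smaller differences depended on how libraries were scaled. The mitochondrial genome gave 8.20% to 8.51% of the reads of a WT library and 5.75% to 6.12% of those of a GSH library. Its reads weigh on the read total by which each value is divided. Its share of summed FPKM was 20.5% to 21.7% in WT and 14.7% to 15.9% in GSH. In what is called rescaling to the total without mitochondrial transcripts, each value was divided by the share of summed FPKM outside them. Division by that total itself was not run, and summed FPKM differs between libraries. Under this rescaling 13 members were higher and 14 lower. Of all genes 1016 were higher and 3625 lower, and the median gene moved from 0.021 to -0.065. The median member moved from 0.087 to -0.0098, with 42 of 89 members positive in place of 66. With values rescaled to reads without mitochondrial transcripts, 24 members were higher and 5 lower (1885 and 2517 of all genes). Under scaling by relative log expression, the median ratio to a common reference, the counts were 26 and 5 (2167 and 2280 of all genes), where the reported fit had 2533 and 2014. None of the 32 called members changed sign under any of these scalings. Of the 28 higher members, 13 stayed past the threshold in each of 16 other settings: Ndufa2, Ndufa8, Ndufb8, Ndufb10, Sdhc, Uqcr10, Uqcrq, Atp5a1, Atp5b, Atp5d, Atp5f1, Atp5g1 and Atp5g2. Of the 4 lower members, Ndufab1 and Ndufc2 did so.

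**Figure D2:**
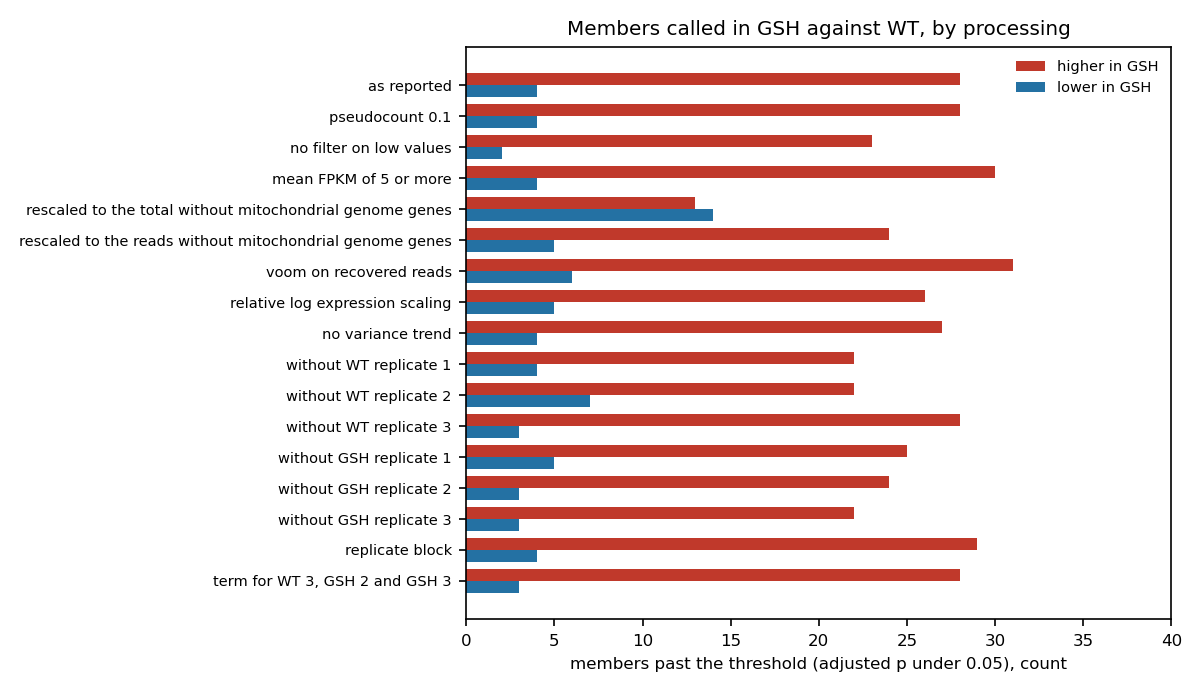
Number of members past the threshold in GSH against WT (x axis, count) under the reported processing and each alternative that used all or all but 1 of the 6 libraries (y axis), with higher members in red and lower members in blue. Rescaling to the total without mitochondrial genome genes (division by the share of summed FPKM outside them) gives 13 higher and 14 lower members. Each other setting gives 22 to 31 higher and 2 to 7 lower.

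Complex II, succinate dehydrogenase, which also works in the citric acid cycle, had every gene higher in GSH (100%, against 20.6% of all genes). Its 4 genes summed to 163, 163 and 172 FPKM in WT 1 to 3 and to 189, 197 and 189 FPKM in GSH 1 to 3. Sdha, the flavoprotein that oxidises succinate, was at 48.4, 50.6 and 51.7 FPKM in WT and at 55.5, 61.4 and 60.3 FPKM in GSH. The groups did not overlap, and Sdha rose by 17.5% (log2 difference 0.23, SE 0.046, adjusted p = 0.0114). Sdhb, the iron-sulfur subunit, was at 31.9, 29.8 and 34.2 FPKM in WT and at 36.8, 36.8 and 36.6 FPKM in GSH, with log2 difference 0.20, SE 0.049 and adjusted p = 0.023. The 3 GSH libraries were nearly equal for Sdhb, while WT 2 was the lowest library and WT 3 the highest of WT. Of the membrane anchors, Sdhc was at 14.4, 14.7 and 15.4 FPKM in WT and at 18.5, 18.1 and 18.0 FPKM in GSH. Sdhc had the largest difference of the complex, 0.28 (SE 0.034, adjusted p = 0.00258). Sdhd, the other anchor and the most abundant of the 4, was at 67.9, 67.6 and 70.5 FPKM in WT and at 78.5, 80.7 and 73.8 FPKM in GSH, with log2 difference 0.17 (SE 0.040, adjusted p = 0.0168). The median of the complex was 0.21, and 0.11 after rescaling to the total without mitochondrial transcripts, where Sdhc alone was still called. Sdhb did not pass without WT 1 or without any 1 of the GSH libraries (adjusted p = 0.0596 to 0.0659), nor Sdhd without WT 1 or WT 2 (adjusted p = 0.0515 and 0.0574).

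The F1 head of ATP synthase, the part that makes ATP, also differed in nearly all of its subunits. Of its 5 genes, 4 were higher (80%, against 20.6% of all genes), with a median difference of 0.28. Atp5a1, the alpha subunit, was at 127, 131 and 134 FPKM in WT and at 162, 174 and 167 FPKM in GSH, a rise of 28.6% (log2 difference 0.36, SE 0.037, adjusted p = 0.00195). Atp5b, the catalytic beta subunit and the most abundant gene of complex V, was at 267, 275 and 283 FPKM in WT and at 328, 344 and 329 FPKM in GSH. Its log2 difference was 0.28 (SE 0.035, adjusted p = 0.00302), and all 3 GSH libraries lay above all WT libraries. Atp5d, the delta subunit of the central stalk, was at 71.4, 72.0 and 73.6 FPKM in WT and at 88.9, 93.9 and 91.8 FPKM in GSH (log2 difference 0.34, SE 0.030, adjusted p = 0.00178). Atp5c1, the rotating gamma subunit, was at 97.8, 96.9 and 101 FPKM in WT and at 111, 110.4 and 109 FPKM in GSH, a rise of 11.7%. The exception was Atp5e, the small epsilon subunit, at 18.9, 16.1 and 20.7 FPKM in WT and 20.7, 18.4 and 19.3 FPKM in GSH, whose groups overlapped (adjusted p = 0.569). Under rescaling to the total without mitochondrial transcripts, 3 of the 5 were called higher and none lower, and their median was 0.17.

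The median over the 17 members of complex V, which lack Atp5md here, was 0.14. It was 0.048 after that rescaling and 0.093 without WT 2. Among 7 subunits of the membrane part, Atp5g1, Atp5g2 and Atp5k were higher (42.9%, against 20.6% of all genes) and 4 did not pass. Atp5g1, Atp5g2 and Atp5g3 encode the same mature subunit c of the rotor ring. Atp5g3 held 54.6% to 56.0% of their summed FPKM in WT and 52.7% to 54.5% in GSH. Atp5g1, the least abundant, was at 13.1, 12.3 and 13.2 FPKM in WT and at 16.6, 15.9 and 14.6 FPKM in GSH. Atp5g2 was at 51.9, 50.6 and 54.5 FPKM in WT and at 62.0, 61.2 and 60.1 FPKM in GSH, and Atp5g3 did not pass (log2 difference 0.14, SE 0.052, adjusted p = 0.0847), although its 3 GSH libraries were above its 3 WT libraries. Atp5k, subunit e, was called with all libraries (adjusted p = 0.0334) but in only 1 of the 6 fits without a library, that without WT 1 (adjusted p = 0.0549 to 0.0934 in the other 5). Of the peripheral stalk genes, Atp5f1, subunit b, was at 45.0, 44.7 and 47.1 FPKM in WT and at 54.1, 54.7 and 53.5 FPKM in GSH (log2 difference 0.24, SE 0.029, adjusted p = 0.00262). Atp5s, described as coupling factor B, had the lowest level of the complex and fell by 0.22 (SE 0.051, adjusted p = 0.0164), from 2.57, 2.59 and 2.86 FPKM in WT to 2.13, 2.10 and 2.197 FPKM in GSH. Its values rest on 81 to 131 reads in a library. Atp5h, Atp5j and Atp5o of the stalk did not pass.

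**Figure D3:**
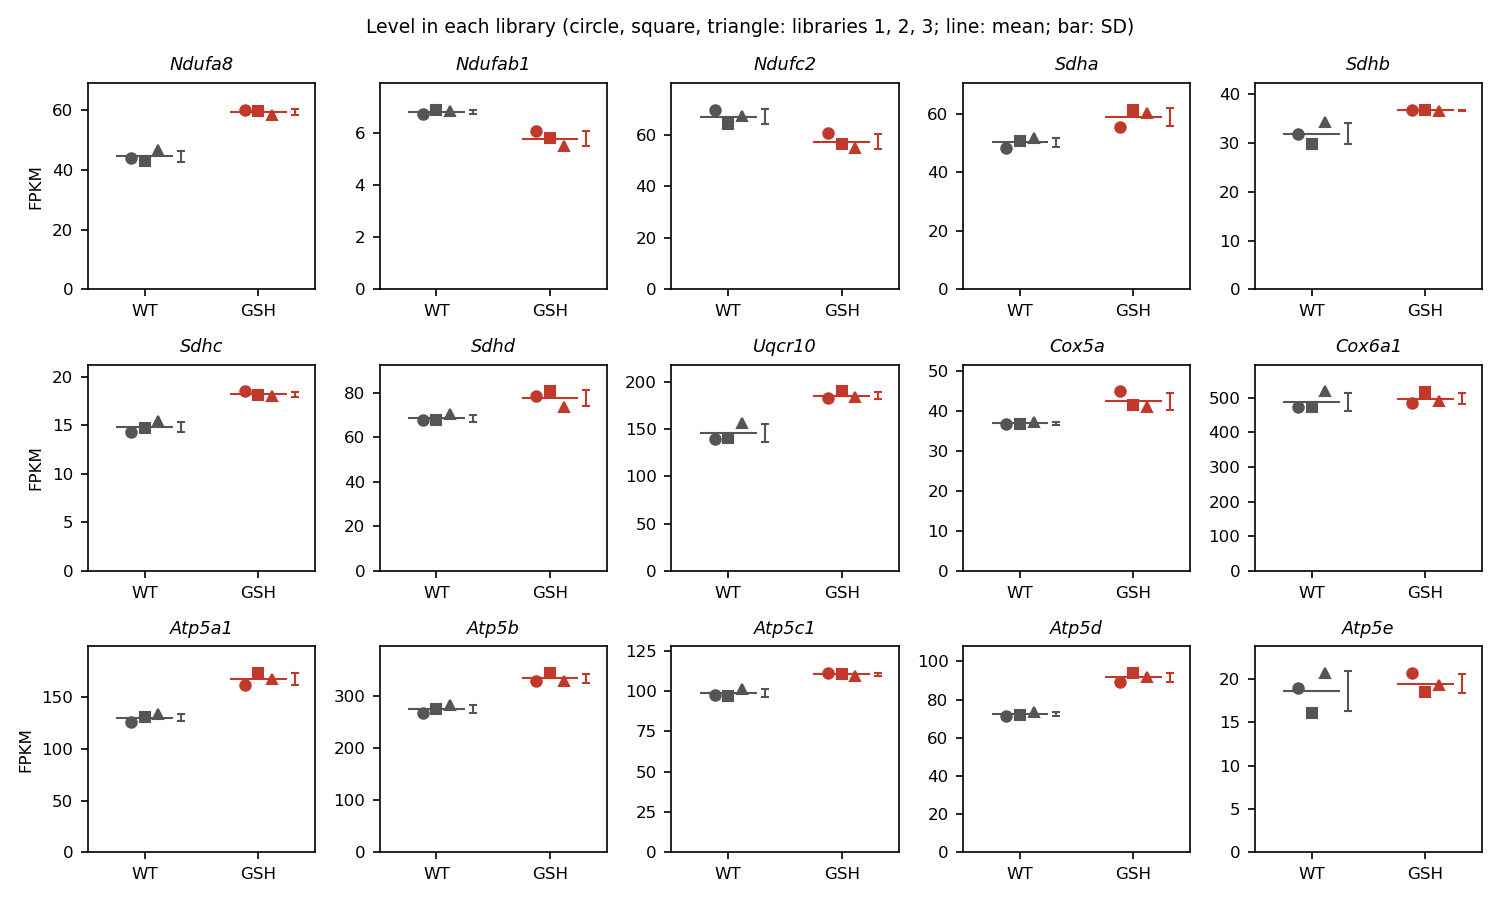
Level of 15 members in each WT and GSH library (y axis, FPKM from 0, points are libraries, lines are means of 3 libraries, bars are SD). Ndufa8, the complex II genes, Uqcr10, Cox5a and Atp5a1 to Atp5d show all GSH libraries above all WT libraries, Ndufab1 and Ndufc2 the reverse, and Cox6a1 and Atp5e overlap; under rescaling without the mitochondrial genome no called member changed sign.

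Complex I, the NADH dehydrogenase, had 35 tested members, with a median difference of 0.080. Of these, 9 were higher (25.7%, near the 20.6% of all genes) and 2 lower (5.71%, against 16.4% of all genes). The complex I median was -0.014 after rescaling to the total without mitochondrial transcripts. The 7 core subunits, which carry the flavin and iron-sulfur centres, all had positive differences (0.056 to 0.30), and Ndufs8 and Ndufv2 passed the test. Ndufs8, an iron-sulfur protein near the quinone site, was at 47.8, 44.3 and 49.1 FPKM in WT and at 52.8, 62.9 and 59.4 FPKM in GSH (log2 difference 0.30, SE 0.070, adjusted p = 0.0178). Ndufv2, an iron-sulfur protein of the NADH-binding part, differed by 7.72%, from 38.2 ± 0.209 to 41.1 ± 0.7004 FPKM (SD, n = 3 libraries each, limma adjusted p = 0.0191). Ndufs8 did not pass without WT 2 or without GSH 3 (adjusted p = 0.0525 and 0.0579), nor Ndufv2 without WT 1, WT 2 or GSH 3 (adjusted p = 0.0546 to 0.074).

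Among the supernumerary subunits of complex I, which surround and stabilise the core, differences ran in both directions. Ndufa8, a subunit on the intermembrane side, had the largest difference of all members, at 44.1, 42.9 and 46.6 FPKM in WT and 60.1, 59.8 and 58.2 FPKM in GSH (log2 difference 0.41, SE 0.036, adjusted p = 0.00178). Ndufa2, of the matrix arm, was at 47.1, 43.8 and 51.4 FPKM in WT and at 58.6, 58.4 and 63.9 FPKM in GSH (log2 difference 0.34, SE 0.064, adjusted p = 0.00904). Ndufb8, of the membrane arm, was at 21.6, 21.3 and 22.5 FPKM in WT and at 24.4, 26.5 and 26.0 FPKM in GSH. None of these groups overlapped. Ndufa9, a nucleotide-binding subunit of the matrix arm, was at 30.4, 28.7 and 31.4 FPKM in WT and at 33.9, 37.6 and 35.4 FPKM in GSH (log2 difference 0.23, SE 0.049, adjusted p = 0.0129). Ndufb10, Ndufa10 and Ndufa7 were also higher, by 20.4%, 10.5% and 8.43%, but Ndufa7 did not pass in any of the 6 fits that left out a library (adjusted p = 0.0517 to 0.0928).

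Both lower subunits of complex I were below WT in every GSH library. Ndufab1, the mitochondrial acyl carrier protein, was at 6.73, 6.88 and 6.83 FPKM in WT and at 6.05, 5.80 and 5.48 FPKM in GSH. It fell by 0.21 on the log2 scale (SE 0.040, adjusted p = 0.00976). Its copy Ndufab1-ps, left out as not protein-coding, was at 3.39 to 5.17 FPKM over the 6 libraries, and reads of such copies may be shared between the genes. Ndufc2, of the membrane arm, was at 69.5, 63.9 and 67.2 FPKM in WT and at 60.5, 56.2 and 55.0 FPKM in GSH, and fell by 0.22 (SE 0.048, adjusted p = 0.0138). Ndufa13, a membrane arm subunit, also had no overlap, at 54.3 to 58.9 FPKM in WT and 48.7 to 53.0 FPKM in GSH, but did not pass (adjusted p = 0.0673).

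Complex III, which passes electrons from quinol to cytochrome c, had 4 of 9 subunits higher and none lower (20.6% and 16.4% over all genes). Cytochrome c itself did not pass. The median over these 10 genes was 0.099, and -0.0026 after rescaling to the total without mitochondrial transcripts. Uqcrfs1, the Rieske iron-sulfur protein, was at 38.1, 38.6 and 42.1 FPKM in WT and at 46.7, 46.8 and 44.2 FPKM in GSH (log2 difference 0.21, SE 0.046, adjusted p = 0.0144). Uqcr10, a small structural subunit and the most abundant gene of the complex, was at 139.8, 140.1 and 157 FPKM in WT and at 182, 189.7 and 184 FPKM in GSH, a rise of 27.3% (adjusted p = 0.0040). WT 3 was the highest WT library for Uqcr10 and lay below every GSH library. Uqcrq, another small subunit, was at 47.1, 49.6 and 51.2 FPKM in WT and at 58.8, 61.3 and 56.3 FPKM in GSH (log2 difference 0.25, SE 0.044, adjusted p = 0.00717). Uqcrc1, a core protein, differed by 12.04% (adjusted p = 0.0257), from 66.7, 66.2 and 69.7 to 72.4, 79.6 and 75.1 FPKM, and was not called without WT 1, WT 2, GSH 2 or GSH 3 (adjusted p = 0.0549 to 0.0794). Cycs, which encodes cytochrome c and had the lowest level of the group, was at 19.3, 15.8 and 19.8 FPKM in WT and at 20.1, 17.4 and 17.6 FPKM in GSH, with overlapping groups (log2 difference 0.010, SE 0.095, adjusted p = 0.94), and its sign changed under each rescaling.

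Of 13 tested genes of complex IV, cytochrome c oxidase, 3 were higher (23.1%, near the 20.6% of all genes) and none lower (against 16.4% of all genes). This complex had the highest levels and the smallest median difference, 0.030. Rescaling to the total without mitochondrial transcripts turned this median to -0.074, with 5 of the 13 lower (Cox5b, Cox6c, Cox7b, Cox8a and Ndufa4) and none higher. Rescaling to reads without them, leaving out WT 2 or GSH 1, and a term for WT 3, GSH 2 and GSH 3 also turned it below 0 (-0.0077, -0.021, -0.024 and -0.0013). It was -0.091 within WT 3, GSH 2 and GSH 3, 0.0088 without WT 1, 0.074 without WT 3 and 0.0024 without GSH 2. Cox6b1, on the side where cytochrome c docks, was at 125, 122 and 127 FPKM in WT and at 139, 142 and 138 FPKM in GSH (log2 difference 0.16, SE 0.028, adjusted p = 0.0075). Cox5a was at 36.7, 36.7 and 37.3 FPKM in WT and at 44.9, 41.6 and 40.9 FPKM in GSH (log2 difference 0.20, SE 0.039, adjusted p = 0.0105). Cox7a2l, which helps join complexes III and IV into supercomplexes, was at 33.5, 32.6 and 36.4 FPKM in WT and at 41.2, 38.0 and 40.8 FPKM in GSH (log2 difference 0.22, SE 0.051). Its adjusted p was 0.0172, and it did not pass without WT 1, GSH 1 or GSH 3 (adjusted p = 0.0523 to 0.0587). The abundant Cox6a1 was at 473, 471 and 518 FPKM in WT and at 485, 516.5 and 489.97 FPKM in GSH and did not pass, with overlapping groups (log2 difference 0.030, SE 0.049, adjusted p = 0.656). That difference was -0.074 after rescaling to the total without mitochondrial transcripts.

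Several complex IV subunits exist as forms with different tissue distributions. The widely expressed form held nearly all transcripts of its family in each WT and GSH library, with a lowest share of 99.9% for Cox4i1, 99.5% for Cox6a1, 99.9% for Cox6b1, 99.9% for Cox7b and 99.7% for Cox8a. Cox6a2, a muscle and heart form, was at 0.402, 2.32 and 1.78 FPKM in WT and at 0.536, 1.17 and 0.952 FPKM in GSH, the lowest tested level of all members (6 to 32 reads in a library). WT 2 was highest for Cox6a2, and the skeletal muscle gene Acta1 was also highest there, at 44.8 FPKM against 9.25 to 14.2 in the other 5 libraries; its part in the Cox6a2 value was not tested. Cox7a1, Cox8b, Cox4i2, Cox6b2, Cox7b2 and Ndufa4l2, which is known as a hypoxia-responsive form of Ndufa4, had means under 1 FPKM and were not tested. In the Cox7a family Cox7a2 held 64.5% to 67.7% of summed FPKM in WT and 62.0% to 66.7% in GSH, with overlapping ranges, and Cox7a2l held most of the rest.

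Of 10 tested assembly factors that share these prefixes, none was higher, 1 was lower and 9 did not pass, beside 20.6% higher and 16.4% lower over all genes. Their median of 0.072 was 0.11 without WT 1, 0.027 without WT 2, 0.030 without GSH 1 and -0.016 after rescaling to the total without mitochondrial transcripts. Ndufaf4, which helps build the matrix arm of complex I and held the highest WT level of this group, was at 10.6, 9.66 and 10.7 FPKM in WT and at 9.35, 7.26 and 7.77 FPKM in GSH. It fell by 0.31 (SE 0.087, adjusted p = 0.0316), with GSH 1 nearest to WT, and did not pass without WT 1, WT 3, GSH 2 or GSH 3 (adjusted p = 0.0759 to 0.0909). Nor did it pass with a term for WT 3, GSH 2 and GSH 3 (adjusted p = 0.0662) or with no filter on low values (adjusted p = 0.094), and the Ndufaf4 difference was -0.46 within those 3 libraries and -0.10 within the other 3. Sdhaf4, which helps mature the flavoprotein of complex II, had the lowest tested level, 1.88, 1.30 and 1.65 FPKM in WT and 2.09, 1.94 and 2.22 FPKM in GSH, and did not pass (adjusted p = 0.0799).

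Other genes of the pathway were taken from lists and counted in the same fit, where 20.6% of all genes were higher and 16.4% lower. Of 17 tested genes of the citric acid cycle and pyruvate dehydrogenase, which feed electrons to the chain, 9 were higher and none was lower (median 0.15). Pdha1 of pyruvate dehydrogenase was at 27.9, 29.5 and 28.9 FPKM in WT and at 35.8, 37.5 and 35.3 FPKM in GSH, and citrate synthase (Cs) at 54.3, 56.2 and 56.0 FPKM against 65.7, 67.2 and 67.5 FPKM. Of 23 protein import genes, 7 were higher and 2 lower (median 0.15). Among 32 further assembly factors, 7 were higher and 3 lower (median 0.045), and among 12 tested regulators of mitochondrial genes, Nrf1 alone was called, at 4.50 to 4.75 FPKM in WT and 5.11 to 5.45 FPKM in GSH (log2 difference 0.15, SE 0.038, adjusted p = 0.0223). After rescaling to the total without mitochondrial transcripts, the citric acid cycle list had 6 higher and 2 lower and import 3 and 4. The further assembly factors had 3 and 6 and the regulators 0 and 2, where all genes had 1016 and 3625. The medians of the 4 lists were then 0.050, 0.051, -0.048 and -0.046.

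The partner subunits encoded in the mitochondrial genome went the other way, with 9 of 13 lower, none higher and a median of -0.46. Over all genes 16.4% were lower and 20.6% higher. The ratio of mitochondrial-genome to nuclear subunit transcripts, as summed FPKM within a library, does not depend on library scaling. For complex I this ratio was 20.7, 22.0 and 19.5 in WT and 15.3, 13.4 and 14.4 in GSH. For complex III, where Cytb is the only mitochondrial subunit, it was 25.8, 26.2 and 23.9 in WT and 16.3, 15.6 and 16.0 in GSH. For complex IV it was 11.3, 11.3 and 9.72 in WT and 7.10, 6.55 and 7.33 in GSH, so that in these 3 complexes the groups did not overlap. In complex V the ratio was 1.66, 1.38 and 1.19 in WT and 1.26, 0.737 and 0.858 in GSH, and GSH 1 lay above WT 3. Mitochondrial genes differed widely in level, with mt-Co1 at 19085 to 19612 FPKM in WT and mt-Co3 at 357 to 559. The sums therefore rest mainly on the highest genes, and ratios of different complexes cannot be compared as levels. With 3 libraries against 3 an exact permutation test cannot go below p = 0.10, and none was run.

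**Figure D4:**
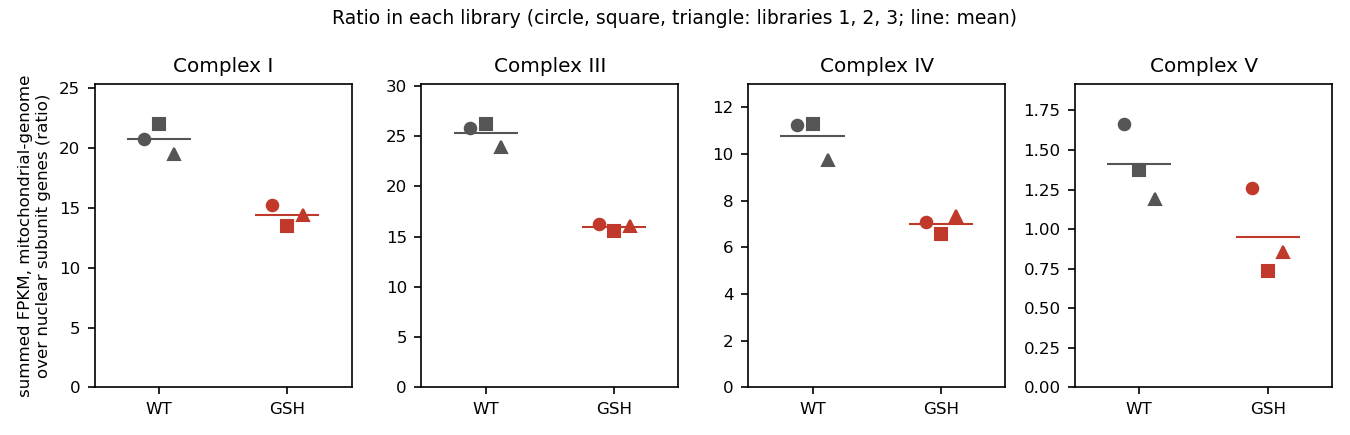
Ratio of summed FPKM of mitochondrial-genome subunit genes to that of the nuclear members of the same complex in each WT and GSH library (y axis, ratio from 0, points are libraries, lines are means). The groups are apart in complexes I, III and IV (for example 23.9 to 26.2 against 15.6 to 16.3 in complex III) and overlap in complex V.

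The libraries WT 3, GSH 2 and GSH 3, which share the odorant-binding transcripts, and WT 1, WT 2 and GSH 1 were also compared apart. Within the former set the median member differed by 0.045 and 49 of 89 members were positive, and within the latter by 0.16 with 73 positive. No member was called in either, where a single library stood for one of the groups and the spread rested on the other group alone. Longer coding sequences went with larger differences among the members (Spearman's rho 0.30 over 89 genes), which was not so over 10280 tested genes (rho -0.032). Members with a coding length under 400 bases had a median of 0.037 with 6 of 37 higher, those from 400 to under 800 bases 0.13 with 13 of 33 higher, and those of 800 or more 0.14 with 9 of 19 higher. In the same order of lengths, 19.2%, 24.5% and 22.3% of all genes were higher. The members share the same 6 libraries, and the part of transcript length in the differences was not tested.

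Cas9 against Ctrl was compared in the other table, whose values rest on other gene lengths, so levels were not compared between the tables. With 1 Ctrl library the spread came from the Cas9 libraries alone. Of 101 members 95 were tested, and none of them was called, nor any of the 11407 genes (0%) in limma. At an unadjusted p under 0.05 there were 210 genes (1.84%) and 1 member. The median member differed by 0.10 and the median gene by -0.011, and 77 of 95 members were positive, against 47.2% of genes. In 53 members all 3 Cas9 libraries lay above Ctrl 3 and in 6 below, where all genes gave 20.1% and 22.5% (42.6% together).

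The difference from Ctrl 3 was uneven between the Cas9 libraries. The median member lay above Ctrl 3 by 0.10 in Cas9 1, 0.025 in Cas9 2 and 0.20 in Cas9 3, and Cas9 3 was the highest Cas9 library for 59 of 95 members. Without Cas9 3 the median over members was 0.058. In that library leukocyte markers summed to 2440 FPKM, against 4685 in Ctrl 3 and 4937 to 5507 in Cas9 1 and 2, while S100a8 of the same list was at 239 FPKM there against 46.3 to 76.9 in the others. The epithelial markers summed to 2571 FPKM in Cas9 3 against 1530 to 2022 in the others. Among them the keratin Krt14 differed most, at 360.3 FPKM in Cas9 3 against 35.8 to 74.7 in the others. Krt18 was at 896 FPKM in Cas9 3 against 672 to 888 in the others. The part of these cell types in the members' values was not tested. Short genes were also higher in the Cas9 libraries as a whole: the rank correlation of difference and coding length was -0.41 over 91 members and -0.28 over 11153 genes, and the part of length was not tested.

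By complex, the medians in Cas9 against Ctrl were 0.13 for complex I, 0.017 for II, 0.20 for III, 0.15 for IV and 0.10 for V, and -0.053 for the assembly factors. Without Cas9 3 they were 0.073, 0.035, 0.11, 0.078, 0.051 and -0.086, and without Cas9 2 complex II was at -0.0061 and the assembly factors at -0.024. Ndufa4l2, the hypoxia-responsive form, had the largest difference among members with a mean of 5 FPKM or more, at 3.14 FPKM in Ctrl 3 and 5.61, 5.00 and 6.69 FPKM in Cas9 1 to 3 (log2 difference 0.70, SE 0.21). It was the 1 member under an unadjusted p of 0.05. It made up 1.51% of the summed Ndufa4 family in Ctrl 3 and 2.27% to 3.19% in Cas9. Ndufa12, a matrix arm subunit of complex I, was at 37.3 FPKM in Ctrl 3 and at 41.2, 58.6 and 59.9 FPKM in Cas9 (log2 difference 0.48, SE 0.26). Atp5md, a small membrane subunit of ATP synthase, was at 166 FPKM in Ctrl 3 and at 199, 209 and 300.1 FPKM in Cas9 (log2 difference 0.48, SE 0.27), with Cas9 3 well above the rest. Ndufc2 was at 53.4 FPKM in Ctrl 3 and at 65.5, 64.0 and 81.0 FPKM in Cas9 (log2 difference 0.38, SE 0.19). Cox7c, a small membrane subunit of complex IV, was at 181 FPKM in Ctrl 3 and at 214, 208 and 271 FPKM in Cas9 (log2 difference 0.34, SE 0.20). In all 5 genes each Cas9 library lay above the Ctrl library, with no test passed.

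**Figure D5:**
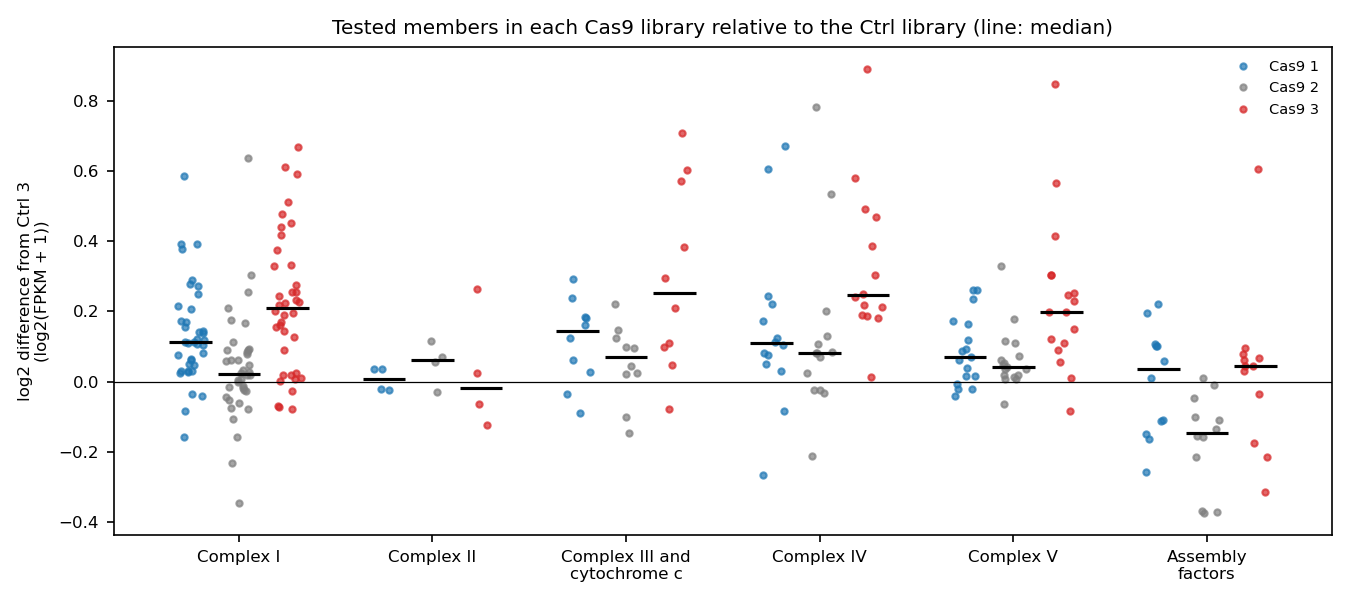
Difference of each tested member from Ctrl 3 in the 3 Cas9 libraries (y axis, log2(FPKM + 1); points are genes, black lines are medians), by complex. Cas9 3 has the highest medians in complexes I, III, IV and V (0.21, 0.25, 0.25 and 0.20), complex II is near 0 in every library (-0.020 to 0.062), and the assembly factors are lowest in Cas9 2 (-0.15).

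Within families of paralogs, Cox7a2l held 71.6% of the Cox7a family in Ctrl 3 and 69.2% to 73.0% in Cas9. Of the subunit c genes, Atp5g2 held 52.3% in Ctrl 3 and 50.8% to 54.2% in Cas9. Cox4i1, Cox6a1, Cox6b1, Cox7b and Cox8a held nearly all of their families in each library, with a lowest share of 99.3% (Cox4i1). Cox4i2, known as a form of lung and of low oxygen, was at 2.21 FPKM in Ctrl 3 and at 3.89, 4.52 and 2.82 FPKM in Cas9, each above Ctrl 3 but with no test passed.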

How the data were processed

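The files hold 1 deposited value per gene and library, and neither the labels nor the headers name a unit. The values were taken as FPKM, deposited by the authors after dividing by gene length and a library total. In the WT and GSH table, 98.5% to 98.7% of values under 200 reads came out within 0.05 of a whole read with GENCODE M21 lengths, which gave depth and the reads of an added fit. Per the submitters' processing notes, Bowtie2 (2.2.3), HISAT2 (2), HTSeq (0.6.0) and the build mm8 were used, with no roles named. Whether counting used strand is not given in the sources used here.

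Groups came from the titles. Symbols matched 30190 of 30803 Ensembl identifiers, and biotypes came from GENCODE M21 or, for symbols, from RefSeq GRCm38.p6. Reads of pseudogene copies cannot be told from those of members. The 13 genes left out of the WT and GSH table as not protein-coding are not all such copies. They include Ndufb1-ps and Ndufb4c, which are members in the other table (the former as Ndufb1). The fit was limma 3.58.1 (R 4.3.3), lmFit and eBayes with a trend on log2(FPKM + 1), two-sided, on genes whose mean FPKM reached 1, with Benjamini-Hochberg adjustment over all of them. Fold changes on that scale understate low genes. Cas9 against Ctrl had 2 residual degrees of freedom. The procedure was tried on simulated data of independent counts with no planned shift in mitochondrial share. Those data do not show how it performs here.

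Members and lists were chosen with earlier results of these data known. Named genes were, per complex, up to 4 higher and 3 lower called members with the smallest p (2 and 2 for assembly factors), the highest and lowest tested member in WT, all paralog families and, in Cas9 against Ctrl, the 5 largest differences at a mean of 5 FPKM or more. Other genes named (such as Atp5c1, Atp5e, Ndufs8, Ndufv2, Ndufa7, Ndufa13, Ndufb2, Atp5k and those of the lists) were picked after their values were seen. Alternatives covered the pseudocount, the filter, scaling, the variance trend, left-out libraries, a replicate block and a term for 3 libraries. Markers of fibroblasts, endothelium, fat and heart were looked at too. Protein sequences were not used here.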

Additional observations from a re-analysis of the deposited data

How the results depend on the processing

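With a pseudocount of 0.1, a minimum mean of 5 FPKM, no variance trend, or a term for WT 3, GSH 2 and GSH 3, the counts of called members stayed within 1.5 times those reported, and none of the 32 called members changed sign under the 3 other scalings, though members not called did. Without a filter on low values 23 members were higher and 2 lower. Rescaling to the total without mitochondrial genome genes (division by the share of summed FPKM outside them) gave 13 higher and 14 lower. This could not be run for Cas9 against Ctrl, where no such genes were used. Leaving out each library in turn gave 22 to 28 higher members and 3 to 7 lower (7 without WT 2), and 2998 (without WT 1) to 3671 genes in all, against 4547. Within WT 3, GSH 2 and GSH 3 there were 0 called genes and 0 members (3401 genes and 34 members at an unadjusted p under 0.05), and within WT 1, WT 2 and GSH 1 there were 4 genes and 0 members (3797 and 35). Voom on the recovered reads gave 31 higher and 6 lower members, and rescaling to reads without mitochondrial genome genes 24 and 5; both were chosen after seeing the data. WT and GSH libraries of the same number deviated together by r = 0.48, -0.11 and 0.21, and not every library correlated best with its own number. These values cannot decide whether the numbers pair the libraries. WT 3 also deviated with GSH 2 (r = 0.39), which shares its odorant-binding transcripts. With the replicate block 29 members were higher and 4 lower, and 3867 genes were called. No paired analysis was possible for Cas9 against Ctrl because the groups share 1 number. For Cas9 against Ctrl each alternative gave 0 called members and genes (161 to 552 genes at an unadjusted p under 0.05).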

Other observations

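Among the members not tested, Ndufb2, a membrane arm subunit of complex I, was at 0.947, 0.849 and 0.886 FPKM in WT and at 0.518, 0.433 and 0.642 FPKM in GSH. All 3 GSH libraries were below all WT libraries, on 46 to 117 reads each. In the Ctrl and Cas9 table the same gene was at 12.04 FPKM in Ctrl 3 and 13.7 to 16.1 FPKM in Cas9, on other gene lengths. Of the 13 left-out genes, Ndufb1-ps was highest, at 16.4 to 20.9 FPKM over the WT and GSH libraries. It is listed as protein-coding Ndufb1 in the other table, at 72.1 FPKM in Ctrl 3 and 76.4 to 101 FPKM in Cas9. Marker sums of other cell types are given for each table apart, since the gene lengths behind them differ. Fibroblast genes summed to 3.13 to 28.6 FPKM in the WT and GSH libraries and to 442 to 1513 FPKM in the Ctrl and Cas9 libraries, and endothelial genes to at most 0.436 FPKM and to 45.7 to 104 FPKM. Adipocyte genes summed to at most 0.327 FPKM in WT and GSH and to 30.0 to 56.0 FPKM in Ctrl and Cas9, and heart genes to 32.3 to 36.9 and 119.5 to 219 FPKM, nearly all from Tnnt2.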
